A study of Mus musculus with 12 samples.

Results

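Macrophage genes were expressed in all 12 fibroblast cultures of the study, at levels that differed several-fold from culture to culture. The set holds 43 genes typical of macrophages and related myeloid cells, and each was represented by a probe set annotated with its symbol alone, the one with the highest mean where there were several. Of the 43 genes 42 were measured, among 28853 probe sets of the array. Slc11a1 is not analysed here. The cultures were fibroblasts grown from mouse embryos, and 3 came from each of 4 groups: mTERT KO, which lacks telomerase reverse transcriptase, mTERT WT, mTR KO, which lacks the telomerase RNA, and mTR WT. All were from male C57BL/6J embryos at stage E12.5-14.5, received no treatment and were harvested at passage 5. Knockouts were of the first generation, G1. The design text describes 3 independent sets in which knockout and wild type were littermates, without saying which cultures form a set.

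Macrophages of the embryo arise from progenitors of the yolk sac and the fetal liver and settle in most tissues before birth. They live on signals through the receptor Csf1r, whose ligand Csf1 is made by fibroblasts, and their identity is set by the transcription factor Spi1 (PU.1). They engulf dying cells and microbes through phagocytic receptors, digest them in lysosomes and secrete the complement protein C1q. Fibroblast cultures started from minced embryos can carry such cells along.

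All values below are deposited log2 signals of single cultures, and the 3 values of a group stand in the order of the culture numbers, 1 to 3. Differences are on the log2 scale and carry the standard error (SE) of a limma fit of all 12 arrays, with n = 3 per group. The background of an array was taken as the 95th percentile of its 1035 probe sets for olfactory receptors, which lay between 4.93 and 5.09. Column medians lay between 5.46 and 5.50. The p-values set a difference between groups against the spread of cultures within groups, which limma estimated over all 4 groups.

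The level of the macrophage genes differed widely within every group. The median over the 42 genes was 6.55, 8.20 and 8.04 in mTERT KO, against 6.79, 7.998 and 8.44 in mTERT WT. It was 8.63, 7.99 and 6.69 in mTR KO, against 5.96, 7.41 and 7.87 in mTR WT. The groups overlapped in both lines, with mTR KO 1 highest and mTR WT 1 lowest of all, 2.67 log2 units or 6.37-fold apart. As group means the medians were 7.60 ± 0.91 in mTERT KO and 7.74 ± 0.86 in mTERT WT, and 7.77 ± 0.99 in mTR KO and 7.08 ± 1.00 in mTR WT (SD, n = 3 each). Of the 42 genes 38 were lowest in mTR WT 1, 23 were highest in mTR KO 1 and 14 were highest in mTERT WT 3. Between 37 and 41 of the 42 were above background in each culture. Csf1r, Spi1, the C1q genes, Adgre1 and Ptprc, which together mark macrophages among leukocytes, were above background in all 12, by the smallest margin for Spi1 in mTR WT 1 (5.05 against a background of 4.97). In bulk RNA, fewer macrophages and less of these RNAs per macrophage cannot be told apart.

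**Figure D1:**
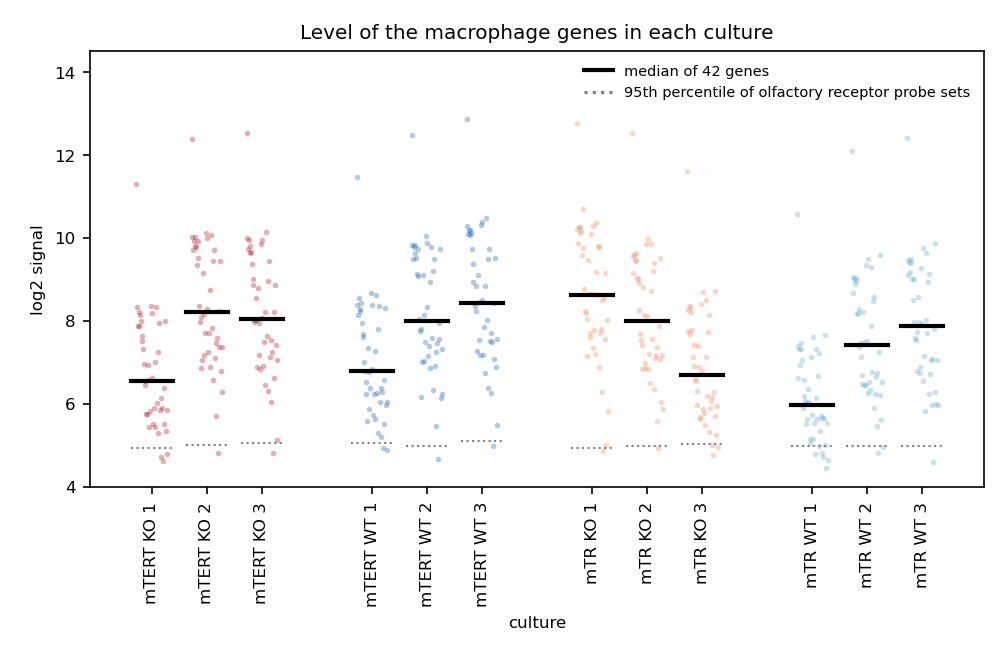
Log2 signal (vertical axis) of the 42 macrophage genes in each of the 12 cultures (horizontal axis), 1 point per gene. Black bars are medians, from 5.96 in mTR WT 1 to 8.63 in mTR KO 1, and dotted lines mark the background level of each array.

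Most genes of the set spanned a wide range over the 12 cultures. The median range was 2.69 log2 units for the 42 genes, against 0.39 for all 28853 probe sets. A range of at least 2 units was found for 37 of the 42 genes, or 88.1%, against 1.45% of all probe sets. The residual SD of the fit had a median of 0.93 over the set, against 0.12 over all probe sets, and 38 of the 42 genes lay above its 99th percentile.

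In the mTERT line the level went with the number of the culture. Cultures numbered 1 were low and those numbered 2 and 3 were high in both genotypes. Knockout minus wild type, the median difference over the 42 genes was −0.26 between cultures of number 1, 0.19 for number 2 and −0.35 for number 3. Relative to number 1, the median gene differed by 1.71 in mTERT KO 2, 1.49 in mTERT KO 3, 1.27 in mTERT WT 2 and 1.62 in mTERT WT 3. The number accounted for a median of 96.2% of a gene's variance in this line and genotype for 1.22%, against 55.6% and 7.53% over all probe sets. The number has more levels than genotype and takes a larger share by itself. Each share is therefore read against that over all probe sets.

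In the mTR line the level did not follow the number. The median difference was 2.57 for mTR KO 1 minus mTR WT 1, with all 42 genes higher. It was 0.59 for number 2, with 41 genes higher, and −1.07 for number 3, with 41 lower. Here the number accounted for a median of 5.54% of a gene's variance and genotype for 16.8%, against 36.2% and 14.7% over all probe sets. The share of genotype thus lay near that over all probe sets.

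**Figure D2:**
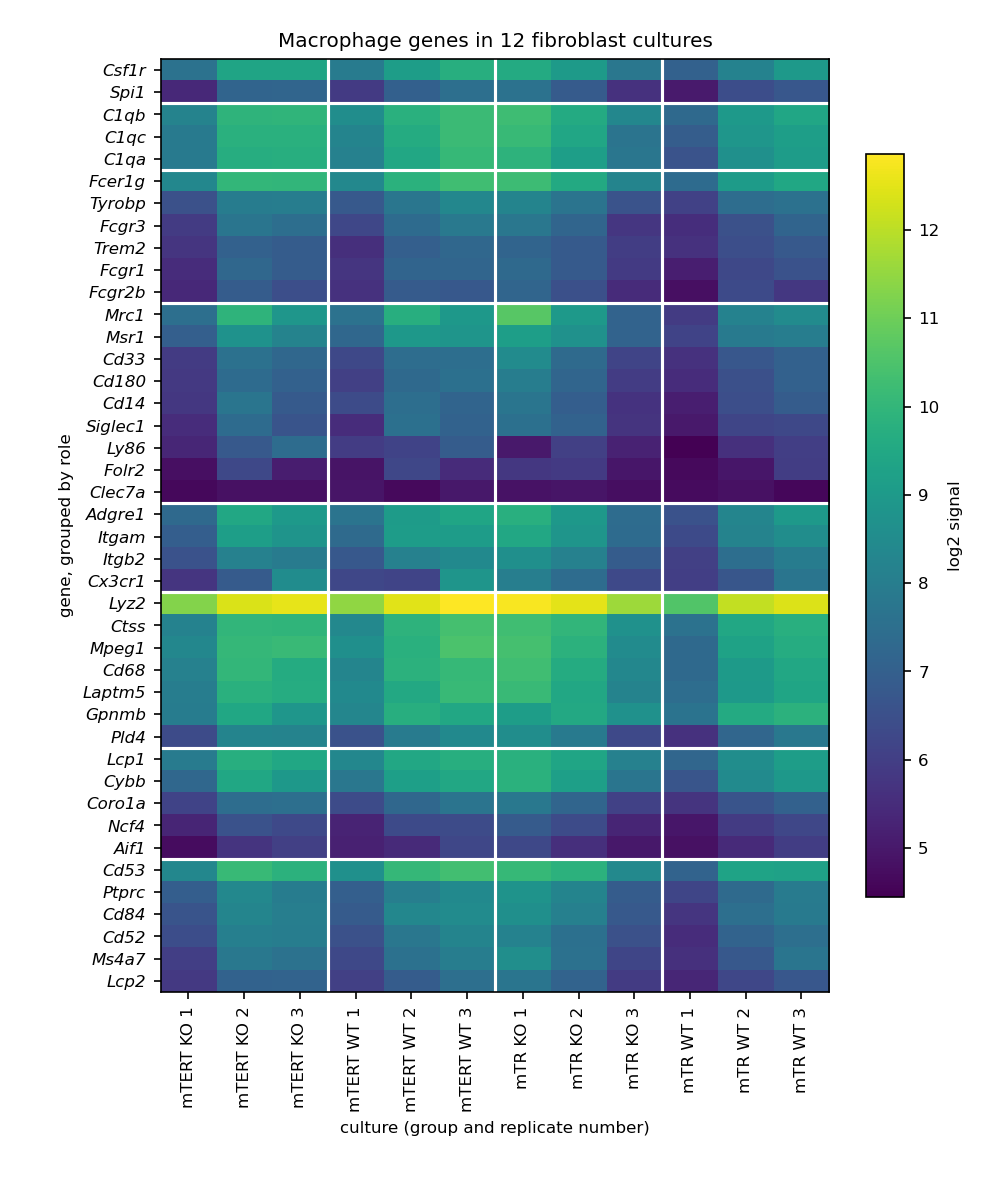
Log2 signal (colour) of the 42 genes (rows, in blocks by role) in the 12 cultures (columns, by group and culture number). Most rows are low in both mTERT cultures numbered 1, in mTR KO 3 and in mTR WT 1, while Clec7a stays between 4.59 and 4.98.

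Both genes that define the lineage showed this pattern. Csf1r, the receptor for Csf1, read 7.62, 9.36 and 9.37 in mTERT KO, against 7.96, 9.14 and 9.73 in mTERT WT. In the other line it read 9.58, 9.04 and 7.77 in mTR KO, against 7.05, 8.17 and 9.003 in mTR WT. Both groups of a line overlapped, and mTR WT 1 was the lowest culture. Spi1, the transcription factor, read 5.43, 7.17 and 7.19 in mTERT KO, against 5.87, 7.04 and 7.53 in mTERT WT. Its mTR values were 7.61, 6.87 and 5.64 in mTR KO, against 5.05, 6.44 and 6.74 in mTR WT. The low cultures were the same 4, namely both mTERT cultures numbered 1, mTR KO 3 and mTR WT 1. Csf1r differed by −0.16 ± 0.66 in the mTERT comparison and by 0.72 ± 0.66 in the mTR comparison (limma, adjusted p = 1 and 0.865). For Spi1 the differences were −0.22 ± 0.65 and 0.63 ± 0.65 in the same order (limma, adjusted p = 1 and 0.884).

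C1qa, C1qb and C1qc encode the 3 chains of C1q, which opens the classical complement pathway. C1qa read 7.87, 9.70 and 9.74 in mTERT KO, against 8.14, 9.48 and 10.09 in mTERT WT. The mTR line gave 9.88, 9.16 and 7.74 in mTR KO, against 6.61, 8.67 and 9.09 in mTR WT. The lowest value, in mTR WT 1, lay 3.48 units under the highest, in mTERT WT 3. For C1qb the mTERT line gave 8.22, 9.92 and 9.95 in mTERT KO, against 8.56, 9.77 and 10.19 in mTERT WT. The mTR line gave 10.26, 9.59 and 8.35 in mTR KO, against 7.31, 8.998 and 9.41 in mTR WT. Here mTR KO 1 was the highest culture, and mTR KO 3 lay nearer to mTR WT 1 than to mTR KO 2. C1qc showed 7.87, 9.80 and 9.80 in mTERT KO, against 8.24, 9.63 and 10.19 in mTERT WT. It showed 10.11, 9.44 and 7.67 in mTR KO, against 6.93, 8.88 and 9.17 in mTR WT. The 3 genes thus had the same 4 low cultures. In the mTR comparison they differed by 0.80 ± 0.78 for C1qa, 0.83 ± 0.68 for C1qb and 0.75 ± 0.80 for C1qc (limma, adjusted p = 0.873, 0.859 and 0.888), and in the mTERT comparison by −0.14, −0.14 and −0.20 (adjusted p = 1 for each).

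The receptors for antibodies and their signalling adaptors made a block of 6 genes. Fcer1g, the signalling chain shared by several Fc receptors, read 8.34, 10.02 and 9.99 in mTERT KO, against 8.39, 9.83 and 10.28 in mTERT WT. The values of the mTR line were 10.21, 9.56 and 8.26 in mTR KO, against 7.39, 9.05 and 9.46 in mTR WT. It was low in the 4 cultures named above. Tyrobp (DAP12), the adaptor of Trem2 and other receptors, read 6.54, 7.96 and 8.02 in mTERT KO, against 6.80, 7.77 and 8.35 in mTERT WT. The mTR line gave 8.25, 7.69 and 6.60 in mTR KO, against 6.06, 7.45 and 7.60 in mTR WT. Here mTERT WT 3 was highest. Trem2, a receptor for lipids, read 5.74, 7.06 and 6.89 in mTERT KO, against 5.58, 6.99 and 7.26 in mTERT WT. It read 7.14, 6.83 and 5.96 in mTR KO, against 5.64, 6.46 and 6.79 in mTR WT. Its range of 1.68 units was among the narrower ones, and mTERT WT 1 was lowest. Fcgr1, Fcgr3 and Fcgr2b, receptors for IgG of which Fcgr2b is inhibitory, ranged over 2.19, 2.31 and 2.40 units. In the mTR comparison the 6 differences lay between 0.35 for Trem2 and 0.74 for Fcgr2b, and in the mTERT comparison between −0.16 and −0.05.

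Among scavenger, lectin and pattern receptors Mrc1, the mannose receptor, had the widest range of the set, 4.79 units. It read 7.51, 9.92 and 8.87 in mTERT KO, against 7.62, 9.73 and 8.94 in mTERT WT. Among mTR cultures it read 10.69, 9.01 and 7.14 in mTR KO, against 5.89, 8.18 and 8.49 in mTR WT. Unlike Csf1r, it was higher in the mTERT cultures numbered 2 than in those numbered 3. Folr2, a folate receptor of tissue-resident macrophages, read 4.78, 6.29 and 5.13 in mTERT KO, against 4.89, 6.24 and 5.48 in mTERT WT. In mTR cultures the values were 5.81, 5.87 and 4.95 in mTR KO, against 4.64, 4.95 and 5.98 in mTR WT. It was above background in 7 of 12 cultures and likewise peaked in the mTERT cultures numbered 2. Msr1, the class A scavenger receptor, Cd14, a co-receptor for bacterial lipopolysaccharide, the sialic acid binding lectins Siglec1 and Cd33, and Cd180, a relative of the Toll-like receptors, ranged over 2.50 to 3.03 units. Ly86 (MD-1), the partner protein of Cd180, took another course. Ly86 read 5.34, 6.80 and 7.42 in mTERT KO, against 5.96, 6.13 and 6.89 in mTERT WT. In mTR cultures the signals were 5.01, 6.03 and 5.24 in mTR KO, against 4.45, 5.61 and 6.00 in mTR WT. In mTR KO 1, where Cd180 had its highest value of 8.02, Ly86 was lower than in any culture except mTR WT 1. Clec7a (Dectin-1), the receptor for fungal glucans, read 4.62, 4.82 and 4.81 in mTERT KO, against 4.92, 4.67 and 4.98 in mTERT WT. Its mTR values were 4.87, 4.93 and 4.77 in mTR KO, against 4.71, 4.81 and 4.59 in mTR WT. It was above background in none of the 12 cultures.

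The adhesion receptors Adgre1, Itgam (CD11b) and Itgb2 (CD18) are classical surface markers of macrophages. Adgre1 read 7.32, 9.51 and 9.004 in mTERT KO, against 7.69, 9.08 and 9.38 in mTERT WT. The mTR line gave 9.76, 8.92 and 7.43 in mTR KO, against 6.56, 8.28 and 9.01 in mTR WT. Itgam read 6.94, 9.16 and 8.79 in mTERT KO, against 7.34, 9.11 and 9.10 in mTERT WT. Both genes were highest in mTR KO 1 and lowest in mTR WT 1. Itgam in the mTR line read 9.48, 8.82 and 7.39 in mTR KO, against 6.35, 8.20 and 8.57 in mTR WT. Cx3cr1, the receptor for the chemokine Cx3cl1, took another course. Cx3cr1 read 5.75, 6.86 and 8.54 in mTERT KO, against 6.24, 6.16 and 8.83 in mTERT WT. In the mTR cultures it read 8.04, 7.42 and 6.30 in mTR KO, against 6.02, 6.69 and 7.73 in mTR WT. Both mTERT cultures numbered 3 were the highest of all 12, and mTERT WT 2 lay between the cultures numbered 1. Over the 12 cultures its Pearson r with the median of the other genes of the set was 0.752, against 0.994 for Adgre1, 0.987 for Itgam and 0.989 for Itgb2. All genes share the 12 arrays, so r is only a measure of likeness.

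A block of 7 genes acts in lysosomes and digestion. Lyz2, the lysozyme of macrophages, read 11.31, 12.39 and 12.54 in mTERT KO, against 11.46, 12.47 and 12.86 in mTERT WT. The values of the mTR line were 12.78, 12.52 and 11.62 in mTR KO, against 10.57, 12.10 and 12.42 in mTR WT. The low cultures were again the 4 named above. Cd68, a glycoprotein of the lysosomal membrane, read 8.13, 10.01 and 9.63 in mTERT KO, against 8.28, 9.84 and 10.08 in mTERT WT. The mTR values of Cd68 were 10.27, 9.64 and 8.33 in mTR KO, against 7.33, 9.04 and 9.48 in mTR WT. The protease gene Ctss (cathepsin S), Laptm5, Mpeg1 (perforin-2) and Pld4 ranged over 2.69 to 3.16 units, and Laptm5 was the gene closest to the median of the others (Pearson r = 0.998). Gpnmb, a glycoprotein of lysosomes and melanosomes, was less alike (r = 0.800). Gpnmb read 7.99, 9.45 and 8.87 in mTERT KO, against 8.31, 9.73 and 9.50 in mTERT WT. The mTR values of Gpnmb were 9.14, 9.52 and 8.71 in mTR KO, against 7.65, 9.58 and 9.87 in mTR WT. It was highest in mTR WT 3, and its differences were −0.41 ± 0.58 in the mTERT and 0.09 ± 0.58 in the mTR comparison (limma, adjusted p = 1 and 0.987).

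Genes of the oxidative burst and of the leukocyte cytoskeleton varied alike. Cybb and Ncf4, subunits of the phagocyte NADPH oxidase, ranged over 3.14 and 1.91 units, and the actin regulators Lcp1 and Coro1a over 2.56 and 2.11. Aif1 (Iba1), an actin-binding protein, read 4.71, 5.70 and 6.05 in mTERT KO, against 5.21, 5.45 and 6.25 in mTERT WT. Among mTR cultures it read 6.29, 5.58 and 5.00 in mTR KO, against 4.82, 5.46 and 5.97 in mTR WT. It was above background in 9 of 12 cultures.

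Most of the remaining genes mark leukocytes in general. Ptprc (CD45), a phosphatase on nucleated blood cells, read 6.95, 8.37 and 7.98 in mTERT KO, against 7.01, 8.04 and 8.42 in mTERT WT. In mTR cultures the signals were 8.78, 8.25 and 6.90 in mTR KO, against 6.19, 7.36 and 7.96 in mTR WT. The surface protein genes Cd52, Cd53, Cd84 and Ms4a7 and the signalling adaptor gene Lcp2 (SLP-76) were above background and lowest in mTR WT 1, as Ptprc was. Their ranges lay between 2.37 units for Lcp2 and 3.18 for Cd53.

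No gene of the set passed the test in the mTERT comparison. The median difference, mTERT KO minus mTERT WT, was −0.14, with 3 genes higher and 39 lower, against a median of 0.00 and 50.6% higher over all probe sets. Limma called 0 of 42 genes at an adjusted p below 0.05, where 0.00347% of all probe sets were called. At an unadjusted p below 0.05 there were 0 of 42, against 0.96% of probe sets higher and 0.957% lower. A difference of 0.5 or more was reached by 0 of 42, against 0.218%, and one of −0.5 or lower also by 0, against 0.17%. The groups overlapped for all 42 genes, while 2.88% of probe sets were higher and 3.09% lower without overlap. The SE had a median of 0.65 over the set and 0.09 over all probe sets. The fit holds no term for the culture number, and its median moved when single cultures were left out. It was 0.38 without mTERT KO 1, 0.18 without mTERT WT 3 and −0.01 without mTERT WT 2. Values of −0.60 without mTERT WT 1, −0.47 without mTERT KO 2 and −0.37 without mTERT KO 3 were also obtained. Each such omission left a culture without the partner of its number, and in this line the level went with the number. Between cultures of the same number the median was −0.26, 0.19 and −0.35 for numbers 1, 2 and 3.

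In the mTR comparison the genes were higher on average in the knockout, and none passed the test. All 42 differences, mTR KO minus mTR WT, were above 0, against 50.3% of all probe sets, with a median of 0.72. They ran from 0.08 ± 0.53 for Ly86 to 1.42 ± 0.97 for Mrc1. A difference of 0.5 or more was reached by 33 of 42, against 1.05% of all probe sets, and one of −0.5 or lower by 0, against 0.964%. Limma called 0 of 42 genes, as it called 0% of all probe sets, and the smallest adjusted p was 0.841, for Clec7a, which was at background. None of the 42 had an unadjusted p below 0.05, against 2.23% of probe sets higher and 3.59% lower. The groups overlapped for all 42 genes, while 5.33% of probe sets were higher and 6.07% lower without overlap. The genes varied together, so their shared direction is not 42 separate results. The median was 0.12 without mTR WT 1, 0.30 without mTR KO 1, 1.12 without mTR WT 3 and 1.24 without mTR KO 3.

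**Figure D3:**
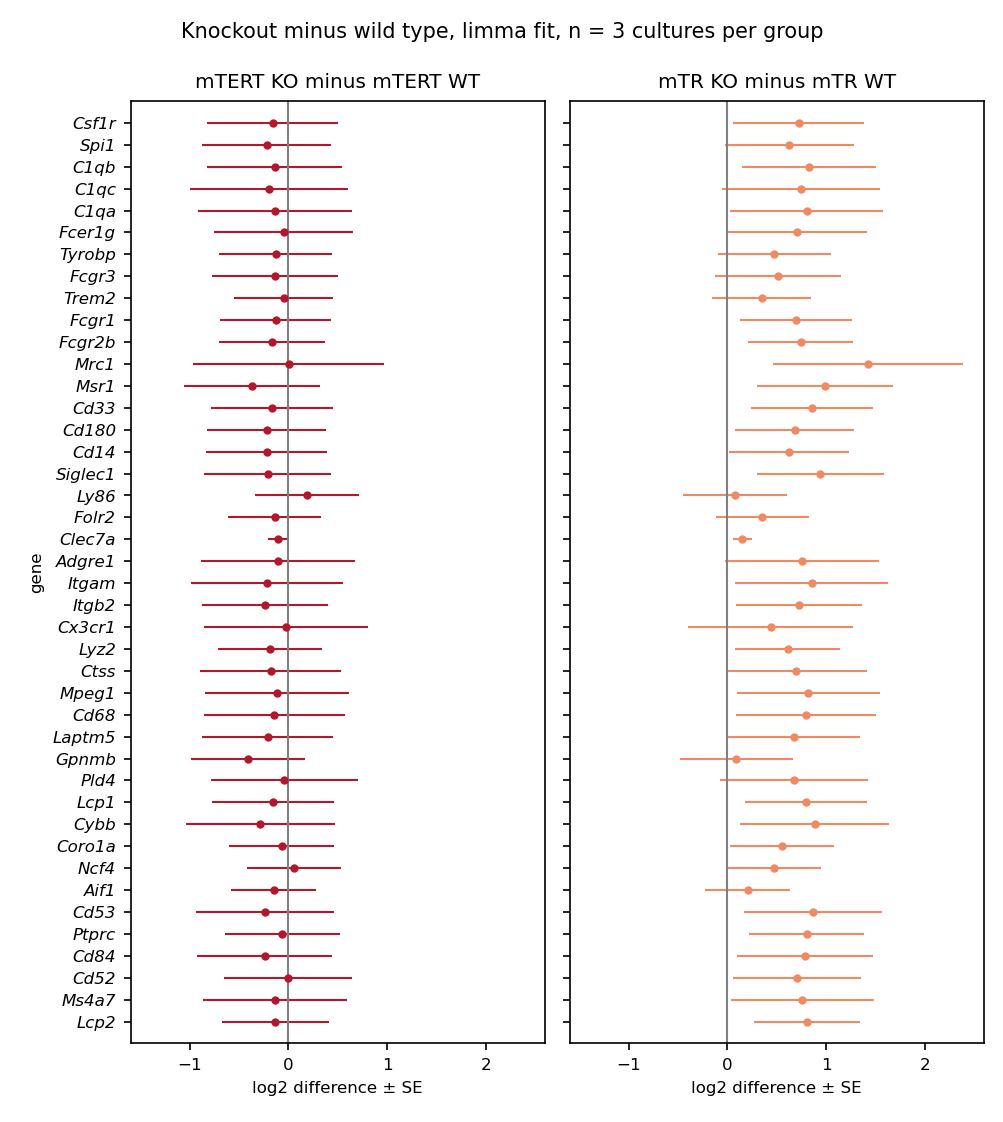
Log2 difference, knockout minus wild type, with the SE of the limma fit (bars) for the 42 genes (rows), n = 3 cultures per group. The median lies at −0.14 in the mTERT line (left) and at 0.72 in the mTR line (right), and no gene passed the test in either.

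The knockout effects of the lines and the lines themselves were compared as well. The effect in the mTERT line minus that in the mTR line had a median of −0.88, from −1.42 for Mrc1 to 0.11 for Ly86, the only gene above 0, against 50.9% of all probe sets. Limma called 0 of 42 (0% of all probe sets), and at p below 0.05 before adjustment there were again 0, where 1.9% of probe sets were higher and 1.44% lower. The value was −0.5 or lower for 35 of 42 genes, against 1.47% of all probe sets, and 0.5 or more for 0 genes, against 0.922%. The median of this effect difference was −0.31 without mTR WT 1, −0.32 without mTERT KO 1, −0.45 without mTR KO 1 and −0.52 without mTERT WT 3, and −1.34 without mTERT WT 1 and −1.40 without mTR KO 3.

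Between wild types, mTERT WT minus mTR WT, all 42 genes were higher (52.2% of all probe sets), with a median of 0.75, and 35 reached 0.5 (1.36%), while 0 were at −0.5 or lower (1.33%). Limma called 0 of 42 (0.0173%), at an unadjusted p below 0.05 there were 0 (2.85% higher and 3.93% lower), and all 42 overlapped (5.91% higher and 7.14% lower without overlap). The median was 0.18 without mTR WT 1, 0.42 without mTERT WT 3 and 1.19 without mTERT WT 1. Between knockouts, mTERT KO minus mTR KO, 9 genes were higher (52.2% of all probe sets), with a median of −0.13, and 1 reached 0.5 (0.253%), namely Ly86 at 1.09 ± 0.53, while 0 were at −0.5 or lower (0.302%). Limma called 0 of 42 (0.00347%), at an unadjusted p below 0.05 there were 0 (1.58% higher and 1.41% lower), and all overlapped (3.93% higher and 3.31% lower without overlap). There the median was 0.41 without mTERT KO 1, 0.27 without mTR KO 1 and −0.04 without mTR KO 2, and −0.31 without mTERT KO 3, −0.41 without mTERT KO 2 and −0.59 without mTR KO 3. These comparisons share groups with those above.

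Within the mTERT line 7 genes differed in the same direction in both genotypes between the high cultures numbered 3 and 2, by a mean of over 0.55 in size, and were singled out after their values were seen. Cx3cr1 read 8.54 in mTERT KO 3, against 6.86 in mTERT KO 2. It read 8.83 in mTERT WT 3, against 6.16 in mTERT WT 2. Number 3 minus number 2, Ly86 differed by 0.62 in mTERT KO and 0.76 in mTERT WT, and Aif1 by 0.35 in mTERT KO and 0.80 in mTERT WT. The other 4, all receptors for sugars, lipids or folate, were lower in number 3. Folr2 differed by −1.15 in mTERT KO and −0.76 in mTERT WT, Mrc1 by −1.06 in mTERT KO and −0.80 in mTERT WT, Siglec1 by −0.75 in mTERT KO and −0.48 in mTERT WT and Cd14 by −0.88 in mTERT KO and −0.33 in mTERT WT. Over all 42 genes the median was −0.20 in mTERT KO and 0.34 in mTERT WT. These differences between single cultures were not tested.

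**Figure D4:**
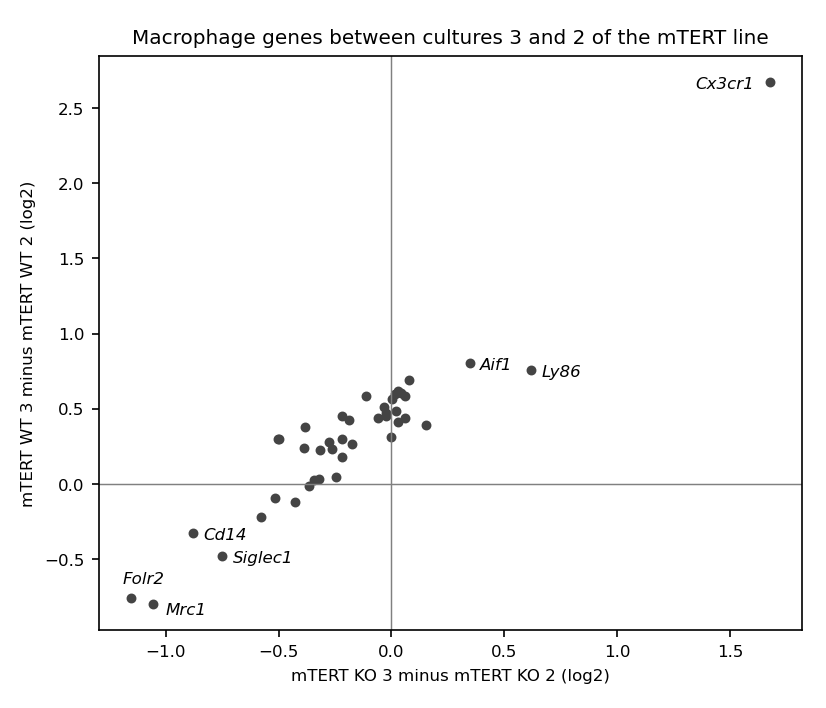
Log2 difference of the 42 genes between cultures 3 and 2 of the mTERT line, in mTERT KO (horizontal axis) and in mTERT WT (vertical axis), 1 point per gene. Cx3cr1 lies apart at 1.68 and 2.67, and Folr2, Mrc1, Siglec1 and Cd14 lie at the lower left.

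The promoters of 4 genes are shown because these genes span the patterns above: Laptm5 and C1qb stayed close to the median, Mrc1 had the widest range and Cx3cr1 took another course. Each is the stretch of 250 bases before the gene start in RefSeq, build GRCm38.p6, on the strand of the gene, with capitals for GAGGAA, the core of the PU box bound by Spi1, or TTCCTC, the same word on the other strand.
Laptm5 (chr4:130913066-130913315, plus strand): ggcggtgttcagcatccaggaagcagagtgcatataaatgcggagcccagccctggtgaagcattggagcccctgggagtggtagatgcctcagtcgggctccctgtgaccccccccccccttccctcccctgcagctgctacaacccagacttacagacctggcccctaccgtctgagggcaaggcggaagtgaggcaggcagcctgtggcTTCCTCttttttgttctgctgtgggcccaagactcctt
C1qb (chr4:136886201-136886450, minus strand): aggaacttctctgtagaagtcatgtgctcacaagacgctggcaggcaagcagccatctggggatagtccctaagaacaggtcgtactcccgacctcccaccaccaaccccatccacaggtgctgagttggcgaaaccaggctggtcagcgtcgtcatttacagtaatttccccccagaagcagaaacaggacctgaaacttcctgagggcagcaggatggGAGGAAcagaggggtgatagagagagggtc
Mrc1 (chr2:14229164-14229413, plus strand): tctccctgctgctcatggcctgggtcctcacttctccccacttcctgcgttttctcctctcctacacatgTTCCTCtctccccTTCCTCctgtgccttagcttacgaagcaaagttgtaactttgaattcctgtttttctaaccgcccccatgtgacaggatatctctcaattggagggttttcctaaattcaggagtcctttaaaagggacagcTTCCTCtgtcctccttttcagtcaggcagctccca
Cx3cr1 (chr9:120068297-120068546, minus strand): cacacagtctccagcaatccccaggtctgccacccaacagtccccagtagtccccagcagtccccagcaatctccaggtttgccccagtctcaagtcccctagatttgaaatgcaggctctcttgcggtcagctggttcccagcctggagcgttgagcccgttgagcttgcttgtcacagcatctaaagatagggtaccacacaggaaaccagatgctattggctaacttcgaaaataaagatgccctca
The word occurs 1 time each in the windows of Laptm5 and C1qb, 3 times in that of Mrc1 and 0 times in that of Cx3cr1. The table held 39 windows for 31 of the 42 genes, and 17 windows, or 43.6%, hold the word on either strand, against 23.3% of all 32851 windows of this length. A match describes letters only.

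Genes outside the set were compared with its course. Of 1681 probe sets of 1 gene outside the set with a range of at least 1 unit, 198 had a Pearson r above 0.9 with the median of the set over the 12 cultures. The same held for 37 of the 41 genes of the set with such a range. The closest was Dock2 (r = 0.997), an activator of Rac in leukocytes, followed by Nckap1l, a subunit of their WAVE complex, Cd300c2, Milr1 and Myo1f, a myosin. Next came Ms4a6c, Lat2, the lipid phosphatase Inpp5d, Nfam1, the tyrosine phosphatase Ptpn6, the oxidase subunit Ncf1 and the C5a receptor C5ar1 (r = 0.989). Dock2 read 5.86, 7.47 and 7.33 in mTERT KO, against 5.99, 7.39 and 7.77 in mTERT WT. Its mTR values were 7.84, 7.27 and 5.98 in mTR KO, against 5.39, 6.71 and 7.13 in mTR WT. The genes share the arrays and the same 4 low cultures, so r is again a description.

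Markers of other cells were looked at beside the set, in 19 further lists with 183 measured genes. All 16 fibroblast genes were above background in every culture, and their median ran from 11.42 to 11.72 in mTERT KO, 11.16 to 11.69 in mTERT WT, 11.44 to 11.75 in mTR KO and 11.47 to 11.58 in mTR WT cultures. Single fibroblast genes varied more than this median: Lum (lumican) lay between 5.62 and 10.09, Pdgfra, a receptor for platelet-derived growth factor, between 6.21 and 9.98 and Dcn (decorin) between 8.54 and 10.50. Lum was lowest in mTERT WT 3 and highest in mTERT KO 2, and Pdgfra lowest in mTERT KO 3 and highest in mTR KO 1. Of 30 further genes of myeloid signalling 19 were above background in all cultures, and their median ran from 5.18 in mTR WT 1 to 7.23 in mTERT WT 3. Genes of other blood cells were mostly at background. Above background in no culture were 7 of 8 T cell, 7 of 7 B cell, 6 of 7 NK cell, 10 of 10 neutrophil, 6 of 8 mast cell, 4 of 4 erythroid and 5 of 8 dendritic cell genes. The same held for 6 of 9 endothelial and 2 of 7 epithelial genes, while the 3 megakaryocyte genes were above background in some cultures each. Among the latter Ppbp was so in 10 cultures, with a range of 2.22 units. Above background in every culture were 3 epithelial genes (Krt8, Krt19 and Cldn4), Flt1 of the endothelial list and Zbtb46 of the dendritic cell list. Flt1 ranged between 6.81 and 8.37. Over all 183 genes limma called 0 in either knockout comparison. At an unadjusted p below 0.05 there were 0 higher and 4 lower of the 183 in the mTERT comparison, against 0.96% and 0.957% of all probe sets. The mTR comparison gave 2 higher and 2 lower, against 2.23% and 3.59%.

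Of the 30 myeloid genes 28 were higher in the mTR comparison, against 50.3% of all probe sets, with a median of 0.53. The 4 with the smallest p were Cd300a (0.42 ± 0.25), Was (0.45 ± 0.27), Irf5 (0.40 ± 0.26) and Pirb (0.62 ± 0.46), and none passed. In the mTERT comparison 25 of the 30 were lower, with a median of −0.08, while 50.6% of all probe sets were higher.

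Markers of macrophage subsets were seen only in part. Pf4 (CXCL4), which embryonic macrophages express, read 6.10, 7.86 and 7.76 in mTERT KO, against 6.45, 8.13 and 7.75 in mTERT WT. The mTR line gave 9.17, 7.76 and 6.25 in mTR KO, against 5.47, 7.53 and 7.29 in mTR WT. It had the low cultures of the set, as had Stab1 (stabilin-1), with 5.47 and 8.78 as its lowest and highest values. Cbr2, Tmem119 and Maf were also above background in all 12 cultures. Cbr2 did not follow the set: it read 8.11 in mTR WT 1 and was lowest in mTR KO 2, at 6.31. Nor did Tmem119, which stayed between 7.97 in mTERT WT 3 and 8.58 in mTERT KO 1. Maf lay between 6.50 in mTR KO 3 and 7.87 in mTR KO 1. Timd4 and Cd163, markers of resident subsets, were above background in no culture. Lyve1 stayed between 4.87 and 5.25. Of the 11 resident genes 8 were higher and 3 lower in the mTR comparison, where 50.3% of all probe sets were higher. Among the 11, 3 were above background in no culture. Sall1, above background in 4 of 12 cultures, differed by −0.27 ± 0.12 and Cbr2 by −0.97 ± 0.46. Neither passed (limma, adjusted p = 0.839 for both). Of the 4 measured monocyte genes, Ccr2, a chemokine receptor, and Chil3 were above background in no culture, F13a1, a coagulation factor subunit, in 7 and Plac8 in all 12. Plac8 ranged between 6.96 and 9.13, lowest in mTR WT 3 and highest in mTERT WT 3. The median of the 6 MHC class II genes lay between 4.50 and 4.67, and no gene of that list was above background in all cultures. Of 7 osteoclast genes 4 were above background in no culture and 2, Acp5 and Mmp9, in all 12. Mmp9 ranged between 5.59 and 7.74.

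Cytokine genes of macrophages followed the set in part. The chemokine gene Ccl3 read 7.48, 9.57 and 7.73 in mTERT KO, against 7.74, 9.56 and 8.23 in mTERT WT. The values of the mTR line were 9.41, 8.37 and 6.86 in mTR KO, against 5.77, 7.92 and 7.68 in mTR WT. It was higher in the mTERT cultures numbered 2 than in those numbered 3. Il6, a cytokine that fibroblasts also make, read 4.79, 6.47 and 4.81 in mTERT KO, against 4.93, 7.35 and 4.82 in mTERT WT. Among mTR cultures it read 5.24, 5.30 and 4.85 in mTR KO, against 4.84, 4.91 and 4.56 in mTR WT. Both mTERT cultures numbered 2 stood apart. Il1a, Il1b and Il10 were above background in no culture. In the mTR comparison 9 of 10 cytokine genes were higher, against 50.3% of all probe sets, with a median of 0.39. None passed. Tnf differed by 0.60 ± 0.39, Ccl9 by 0.95 ± 0.67 and Ccl3 by 1.09 ± 0.79.

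Among 9 ligands that feed or attract macrophages, Csf1 stayed between 9.38 and 10.03 in all cultures. Ccl2, the ligand of Ccr2, read 7.79, 9.75 and 6.91 in mTERT KO, against 8.23, 10.05 and 6.90 in mTERT WT. In mTR cultures the signals were 9.05, 8.97 and 6.39 in mTR KO, against 6.55, 7.99 and 7.58 in mTR WT. It was highest in the mTERT cultures numbered 2. Cx3cl1, the ligand of Cx3cr1, differed by −0.40 ± 0.17 in the mTR comparison (limma, adjusted p = 0.839). In that comparison 4 of the 9 were higher and 5 lower, with a median of −0.01, while 50.3% of all probe sets were higher.

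Interferon-stimulated genes varied over the same cultures, with another order. The median of 19 such genes was 6.72, 8.24 and 5.60 in mTERT KO, against 6.74, 8.20 and 6.15 in mTERT WT. It was 7.69, 7.47 and 5.60 in mTR KO, against 5.31, 6.65 and 6.09 in mTR WT. Within the mTERT line it was highest in the cultures numbered 2 and lowest in those numbered 3, where the median of the macrophage genes was high. In the mTR line it was lowest in mTR WT 1 and mTR KO 3, which were low for the macrophage genes too. In the mTR comparison 19 of 19 were higher, against 50.3% of all probe sets, with a median of 0.66. None passed (Rsad2 0.48 ± 0.23, Oasl1 0.26 ± 0.13, Eif2ak2 0.73 ± 0.37, Oas2 0.81 ± 0.46). Rsad2 and Oas2 were each above background in 4 of 12 cultures. The part of the interferon-stimulated genes in the levels of the macrophage genes was not tested.

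**Figure D5:**
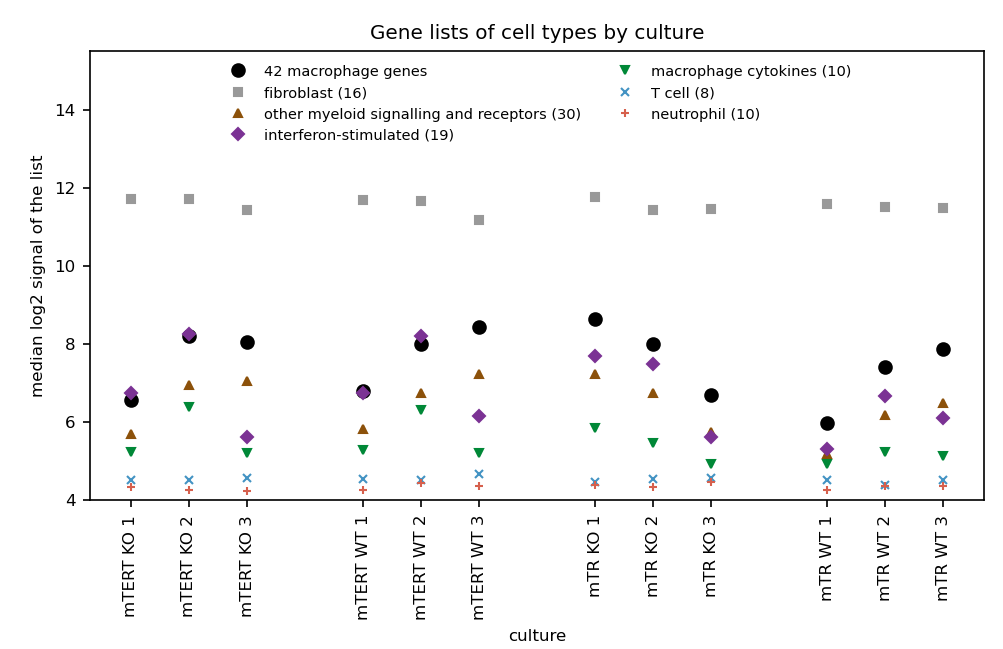
Median log2 signal (vertical axis) of 7 gene lists in the 12 cultures (horizontal axis), with the number of measured genes in brackets. The medians of macrophage and other myeloid genes vary together, the median of the fibroblast genes stays between 11.16 and 11.75 although single genes of that list range widely, and the medians of T cell and neutrophil genes stay at background.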

How the data were processed

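Total RNA of 12 cultures had been hybridised to Affymetrix Mouse Gene 1.0 ST arrays. The values are log2 signals per probe set as the authors deposited them. GCOS 1.4, PLIER and Affymetrix Expression Console are named in the submitters' processing notes, with no role. The scaling of arrays to each other was not given in the sources used here, and differences can depend on it. Groups followed the labels. Limma 3.58.1 in R 4.3.3 fitted 4 group means to all 12 arrays and 28853 probe sets, with 8 residual and 3.14 prior degrees of freedom, Benjamini-Hochberg adjustment over all probe sets and a threshold of 5%. No filter was used. The 43 genes and the other lists were chosen with earlier results of these data known. By rule, values in every culture were given for 17 defining genes and for the 3 widest and 3 narrowest in range, with up to 4 genes per other list by smallest p in the mTR comparison. The values of some other genes, among them Ly86, Pf4, Il6 and Ccl2, were shown outside this rule. Alternatives were the culture number as a block, other normalizations, filters on dim probe sets, other variance settings and the omission of each culture. The fit was also run on simulated data with independent noise and no effect of the culture number. That run does not cover genes that vary together or cultures that pair by number. Cultures of the same number deviated together from their group means in the mTERT line, over the 14426 brighter probe sets (r = 0.674, 0.733 and 0.790), so the numbers were taken to pair these cultures, from the data. In the mTR line they were not (r = −0.156, 0.289 and −0.377). The reported fit holds no term for the number in either line. Its SE and p in the mTERT comparison therefore include the spread between numbers.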

Additional observations from a re-analysis of the deposited data

How the results depend on the processing

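In each of the 5 comparisons 0 genes of the set were called under all 23 alternatives that gave a value. With the culture number as a replicate block the count stayed 0. The block was set over all 12 arrays, within each line or, chosen after the data were seen, for the mTERT cultures alone. Each group holds 1 culture of each number, so such a block cannot move the differences. The unchanged medians of −0.14 (mTERT) and 0.72 (mTR) are therefore no check, and only SE and p can change. The blocks within lines give no value between lines, and a fit of only 6 arrays none for the difference of effects. In the mTR line mTR KO 1 correlated best with mTR WT 3 (0.372) and mTR KO 3 with mTR WT 1 (0.319), so not every culture went best with its own number. Omitting single cultures moved the median between −0.60 and 0.38 in the mTERT comparison, 0.12 and 1.24 in the mTR comparison, −1.40 and −0.31 for the difference of effects, 0.18 and 1.19 between wild types, and −0.59 and 0.41 between knockouts. Single genes were followed through the alternatives only for 19 of the 42, those named by rule. With array weights 5 of these 19 changed sign in the mTERT comparison: Fcer1g was 0.057, Trem2 0.035, Ptprc 0.035, Adgre1 0.0003445 and Cx3cr1 0.26. Omissions turned the sign of 17 of the 19 genes named by rule in the mTERT comparison. The values without 1 culture ran for Csf1r from −0.65 to 0.42, Spi1 from −0.69 to 0.36, C1qa from −0.68 to 0.48, C1qb from −0.61 to 0.43, C1qc from −0.75 to 0.45 and Fcer1g from −0.60 to 0.51. They ran for Tyrobp from −0.55 to 0.36, Trem2 from −0.56 to 0.36, Lyz2 from −0.59 to 0.20, Cd68 from −0.70 to 0.42, Ptprc from −0.47 to 0.35 and Adgre1 from −0.62 to 0.54. For the others, they ran for Mrc1 from −0.58 to 0.63, Itgam from −0.80 to 0.46, Cx3cr1 from −0.77 to 0.85, Folr2 from −0.58 to 0.21 and Aif1 from −0.43 to 0.24. In the mTR comparison 3 of the 19 changed sign. The values without 1 culture ran for Tyrobp from −0.01 to 0.93, Gpnmb from −0.60 to 0.51 and Aif1 from −0.13 to 0.52. These fits differ from that of all arrays only by the omitted culture. In the mTERT line such an omission also left a culture without the partner of its number. Over all probe sets, calls were 0 throughout for the difference of effects and ran from 0 to 2 (reported fit 1) in the mTERT comparison, 0 to 3 (reported fit 0) in the mTR comparison, 0 to 11 (reported fit 5) between wild types and 0 to 8 (reported fit 1) between knockouts. With 3 cultures per group, the median difference of 0.72 in the mTR line lay close to the median SE of 0.65. The SD of the set's median between cultures, pooled within groups, was 0.94.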

Other observations

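A few genes ran against the macrophage genes. Among probe sets of 1 gene with a range of at least 1 unit, the lowest correlations with the median of the set over the 12 cultures were those of the protease gene Prss12 (r = −0.823), the potassium channel subunit gene Kcnab1 (r = −0.820), Pamr1 (r = −0.809), the mesenchymal transcription factor gene Foxf1 (r = −0.778) and Pappa2, a protease for IGF-binding proteins, with 2 probe sets (r = −0.772 and −0.762). Prss12 read 7.06, 5.97 and 6.77 in mTERT KO, against 6.81, 6.18 and 6.26 in mTERT WT. Its mTR values were 6.26, 6.28 and 7.44 in mTR KO, against 7.28, 6.45 and 6.87 in mTR WT. It was highest in mTR KO 3 and mTR WT 1, where the macrophage genes were low. Pamr1 read 8.46, 8.15 and 8.11 in mTERT KO, against 8.54, 7.88 and 7.84 in mTERT WT. Its mTR values were 8.22, 8.02 and 8.73 in mTR KO, against 9.03, 8.08 and 8.56 in mTR WT. These are descriptions over 12 shared arrays, and no test was made.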
